A study of Homo sapiens with 22 samples.

Results

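RB1, TFDP1, CCND3, CCNE1 and CDC6 encode proteins that govern the passage of a cell from G1 into S phase. They were taken by name, each with every array probe that carries its single symbol in the platform annotation, which gave 5 probes of 14257, 1 for each gene. Of the probes, 8051 had 1 gene symbol, naming 7302 genes in all. The genes were listed with the difference between treated and untreated arrays of these same samples in view, so that difference is given here as a description. The members have no test of their own. Whether they passed in the fit over all probes is stated, but nothing is read from it. RB1 had values in the pancreatic line Mia-PaCa-2 alone, and CCNE1 in the melanoma line SK-MEL-28 alone. TFDP1, CCND3 and CDC6 were measured in both lines, so each line holds 4 of the 5 genes.

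RNA came from 2 human tumour lines, the pancreatic carcinoma line Mia-PaCa-2 and the melanoma line SK-MEL-28. Cells were left untreated, with no vehicle named, or incubated for 4 h with 1 µM Amblyomin-X, an inhibitor of the Kunitz family from a tick. Mia-PaCa-2 had 6 arrays per condition and SK-MEL-28 had 5, each hybridised with an independently prepared cRNA target. Whether these targets came from separate cultures is not said, so errors and p-values cover the spread among these arrays, which may be technical.

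In G1, D-type cyclins such as cyclin D3 (CCND3) activate CDK4 and CDK6, which phosphorylate the retinoblastoma protein (RB1). Unphosphorylated RB1 holds back E2F transcription factors, which bind DNA together with DP partners such as DP-1 (TFDP1). Once released, E2F and DP switch on S phase genes, among them cyclin E1 (CCNE1), which drives CDK2, and CDC6, which loads the replicative helicase onto origins of replication.

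CDC6 and TFDP1 were the members whose promoter window holds letters of the E2F consensus, and both windows are shown because the members form this E2F circuit. The windows are the RefSeq promoter sequences of build GRCh38.p14, each of 300 bases around an annotated start. Both strands were searched for TTTGGCGC, TTTGGCGG, TTTCCCGC, TTTCCCGG, TTTGCCGC, TTTGCCGG, TTTCGCGC and TTTCGCGG, and capitals mark the matches, which overlap no other match. CDC6 (chr17:40287629-40287928, plus strand) holds TTTGGCGG from position -28 and TTTGGCGC from position 7, counted from the annotated start. TFDP1 (chr13:113584503-113584802, plus strand) holds TTTCGCGC on the opposite strand, its match beginning at position -120.
CDC6: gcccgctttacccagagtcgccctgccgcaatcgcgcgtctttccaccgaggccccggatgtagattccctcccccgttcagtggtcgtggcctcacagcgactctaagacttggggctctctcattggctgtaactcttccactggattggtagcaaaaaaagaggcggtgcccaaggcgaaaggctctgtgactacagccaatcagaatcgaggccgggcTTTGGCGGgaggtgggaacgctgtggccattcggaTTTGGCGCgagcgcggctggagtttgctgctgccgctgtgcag
TFDP1: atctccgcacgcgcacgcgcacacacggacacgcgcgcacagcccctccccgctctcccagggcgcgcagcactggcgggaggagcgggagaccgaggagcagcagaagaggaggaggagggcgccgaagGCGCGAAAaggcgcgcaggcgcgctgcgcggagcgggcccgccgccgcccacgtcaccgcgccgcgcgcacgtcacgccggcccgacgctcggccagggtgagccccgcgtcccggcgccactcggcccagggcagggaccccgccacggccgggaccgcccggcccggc
Of 35116 such windows in the table, 6.19% hold at least 1 of these motifs and 0.379% hold 2 or more. The windows of CCNE1 (1), CCND3 (3) and RB1 (1) hold none of these letters. The RB1 window and the 3 CCND3 windows lie inside the annotated span of their gene. For RB1 the window (chr13:48476200-48476499, plus strand) lies near the far end of the gene, which starts at 48303751. The sequence around that start was not searched, so nothing is said of motifs there. A match describes letters and not a bound site, and promoter activity was not measured.

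The genes lie at chr13:48303751-48481890 (RB1), chr13:113584688-113641473 (TFDP1), chr6:41934933-42050035 (CCND3), chr19:29811991-29824312 (CCNE1) and chr17:40287879-40304657 (CDC6) in RefSeq on GRCh38.p14. Where in each transcript a probe lies was not analysed here. Values are log2 of the intensities that the authors normalized within each line, and a probe's brightness also depends on its sequence, so levels are not compared between genes. RB1 and CCNE1 were read from dim probes, at percentile 6.92 of the mean levels of all probes in the pancreatic line and at percentile 6.76 in the melanoma line. TFDP1 stood at percentile 22.2 and CCND3 at 31.4 in Mia-PaCa-2, and at 32.1 and 64.9 in SK-MEL-28. For CDC6 these were 81.5 and 17.5.

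Across the series, 4 arrays stood apart from the others of their line, and the members' differences are given with and without them. They were numbers 4 and 5 among the untreated Mia-PaCa-2 arrays and numbers 3 and 5 among the treated SK-MEL-28 arrays. They correlated with the mean profile of the other line by 0.784 to 0.827 over the probes in both lines, against 0.407 to 0.471 for the other 18 arrays. With their own line, the Mia-PaCa-2 pair had 0.817 and 0.818, more than with SK-MEL-28 (0.787 and 0.786). SK-MEL-28 treated arrays 3 and 5 had 0.710 and 0.775 with their own line, less than with Mia-PaCa-2 (0.784 and 0.827). The other 18 arrays had 0.897 to 0.970 with their own line. Median intensities before normalization ran from 55.4 to 165. Of 7 epithelial markers KRT8, KRT18, KRT19 and MUC1 were measured in Mia-PaCa-2. SK-MEL-28 had a value for MUC1 of these. The other epithelial markers, KRT7, EPCAM and CDH1, and all 8 melanoma markers have no probe with that single symbol. Their levels could therefore not be read in either line, and no lack of expression is meant. In SK-MEL-28 the names rest on less. The median level of 19 ribosomal protein probes was 8.10 on its 8 arrays not set apart, 12.44 on its treated arrays 3 and 5 and 12.41 on the 10 Mia-PaCa-2 arrays not set apart, and what the probe names stand for on those 8 arrays was not settled.

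In Mia-PaCa-2, RB1, TFDP1 and CCND3 had lower mean levels in treated than in untreated cells, by 0.54 to 0.60 on the log2 scale, and CDC6 had a higher mean that turned lower once untreated arrays 4 and 5 were left out. By limma with Benjamini-Hochberg adjustment, 0 of the 4 members passed the threshold of 0.05, as did 0 of all 11604 probes tested (0%), of which 1113 (9.59%) had an unadjusted p under 0.05. Of the 4 members, 3 had a difference below 0, against 48.8% of all probes, and 1 had a difference above 0, against 51.2%. Since the members were chosen on this contrast, nothing is read from that count. In every member the treated and untreated arrays overlapped, while 0.543% of all probes had groups that do not. In bulk RNA, a different share of cells in a phase and a different amount of RNA per cell cannot be told apart.

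RB1, the pocket protein that restrains E2F, was measured on 5 untreated Mia-PaCa-2 arrays at 5.96 (array 1), 5.98 (array 2), 6.21 (array 3), 5.72 (array 5) and 5.27 (array 6), with no value on array 4. On treated arrays 1 to 6 it stood at 5.64, 5.77, 4.98, 5.92, 4.12 and 5.32. Treated arrays 3 and 5 lay below every untreated array, and the other 4 fell within the untreated range. The means were 5.83 ± 0.36 (SD, n = 5) untreated and 5.29 ± 0.67 (SD, n = 6) treated, a difference of -0.54 ± 0.30 (SE). Without untreated arrays 4 and 5 the difference was -0.57 ± 0.33. Treated array 5 carried much of it, since without that array it was -0.31.

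TFDP1, the DP partner of E2F, stood at 6.19, 6.73, 6.47, 6.27, 6.11 and 5.37 on untreated arrays 1 to 6. On treated arrays 1 to 6 it stood at 5.36, 6.04, 6.05, 5.74, 5.78 and 4.65. Each of the 6 treated values was under the untreated mean, but the low untreated array 6 made the groups overlap, and array 6 was the lowest of each group. The means were 6.19 ± 0.46 (SD, n = 6) untreated and 5.60 ± 0.53 (SD, n = 6) treated, a difference of -0.59 ± 0.27 (SE), or 1.50-fold lower in treated cells. It was -0.59 ± 0.31 without untreated arrays 4 and 5, whose values lay close to the mean of their group.

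CCND3, the D-type cyclin, stood at 5.03, 6.66, 6.87, 6.94, 7.16 and 5.75 on untreated arrays 1 to 6. On treated arrays 1 to 6 it stood at 5.73, 6.12, 6.06, 5.88, 5.84 and 5.19. The untreated arrays spread widely (SD 0.83, n = 6, against 0.33, n = 6, in treated cells), and untreated array 1 lay below all treated arrays. Untreated arrays 4 and 5 were the highest of the 12. The difference was -0.60 ± 0.33 (SE) with all arrays and -0.28 ± 0.33 without untreated arrays 4 and 5.

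CDC6, the helicase loader, stood at 8.72, 8.42, 8.39, 6.87, 6.73 and 8.26 on untreated arrays 1 to 6. On treated arrays 1 to 6 it stood at 7.52, 8.19, 8.59, 8.39, 8.07 and 8.40. Untreated arrays 4 and 5 lay below every other Mia-PaCa-2 array, and treated array 1 was the lowest of the rest. The difference was 0.30 ± 0.34 (SE) with all arrays and -0.25 ± 0.21 without untreated arrays 4 and 5, so its sign rests on that pair. Without the pair all 4 Mia-PaCa-2 members had a negative difference, against 49.4% of all probes (50.6% lay above 0). There 0 of the 11604 probes passed (0%), 636 (5.48%) had an unadjusted p under 0.05 and 1.15% had groups that do not overlap, against none of the 4 members.

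**Figure D1:**
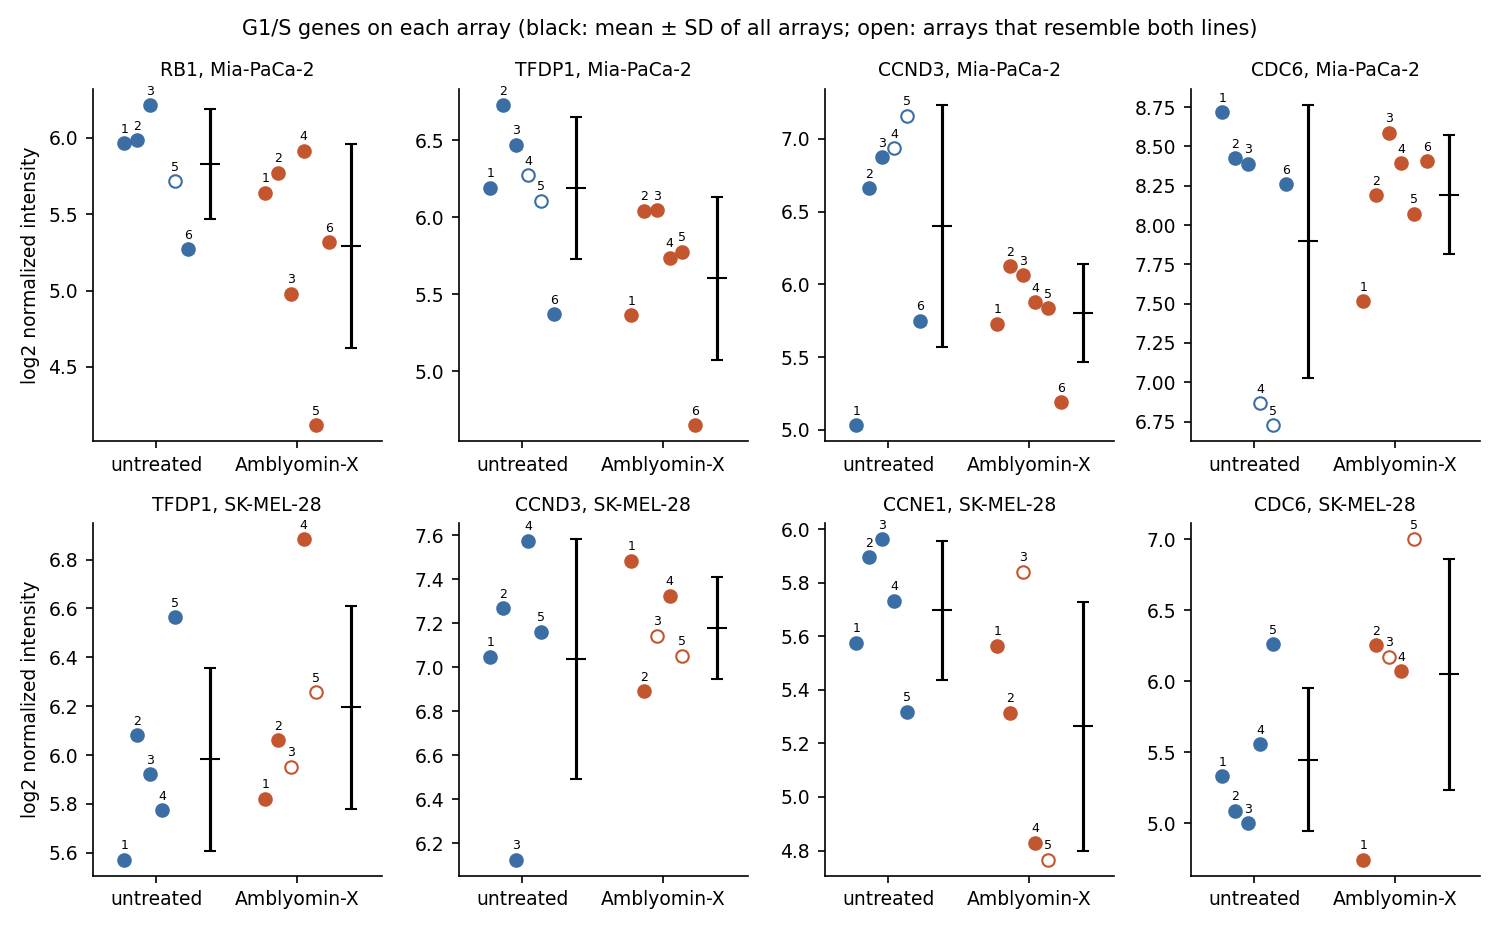
Log2 normalized intensity of each member on each array of Mia-PaCa-2 (top row) and SK-MEL-28 (bottom row), with replicate numbers at the points, black bars for the mean ± SD of all arrays of a group and open points for the 4 arrays that resemble both lines. Treated and untreated arrays overlap in all 8 panels, and CDC6 on untreated Mia-PaCa-2 arrays 4 and 5 (6.87 and 6.73) lies below all other arrays of that line.

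In SK-MEL-28, CCNE1 had a lower mean in treated than in untreated cells, and TFDP1, CCND3 and CDC6 had higher means. The treated means join arrays 3 and 5, set apart, with arrays on which what the probe names stand for was not settled. The differences in this line carry that limit. By limma with Benjamini-Hochberg adjustment, 0 of the 4 members passed, as did 0 of the 7973 probes tested (0%), of which 446 (5.59%) had an unadjusted p under 0.05. With the replicate number as a block, 857 probes had an unadjusted p under 0.05 and 0 passed. Of the 4 members, 1 had a difference below 0, against 57.4% of all probes, and 3 had one above 0, against 42.6%. Without treated arrays 3 and 5 the members kept these signs, where 47.5% of 7904 probes lay below 0 and 52.5% above, 0 passed (0%) and 206 (2.61%) had an unadjusted p under 0.05. The groups overlapped in every member, and 1.2% of all probes had groups that do not (2.52% without that pair).

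CCNE1, the cyclin that drives CDK2, stood at 5.58, 5.90, 5.96, 5.73 and 5.32 on untreated arrays 1 to 5. On treated arrays 1 to 5 it stood at 5.57, 5.32, 5.84, 4.83 and 4.77. Treated array 2 lay just below the lowest untreated array, treated arrays 4 and 5 lay well below it, and treated array 3 lay within the upper part of the untreated range. The means were 5.70 ± 0.26 (SD, n = 5) untreated and 5.26 ± 0.46 (SD, n = 5) treated, a difference of -0.43 ± 0.24 (SE). It was -0.46 ± 0.24 without treated arrays 3 and 5, the highest and the lowest of the treated group. Treated and untreated arrays of one number deviated together in this line, though only 3 of 5 were closest to their own number. CCNE1 was lower on the treated array in 5 of 5 such pairs, by as little as the step from 5.58 to 5.57 in pair 1, and with the replicate number as a block the SE was 0.18.

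CDC6 stood at 5.33, 5.09, 5.00, 5.56 and 6.26 on untreated SK-MEL-28 arrays 1 to 5, and on treated arrays 1 to 5 at 4.75, 6.25, 6.17, 6.07 and 7.0. Treated array 5, one of the pair set apart, was the highest of the 10 arrays, and treated array 1 was the lowest. The difference was 0.60 ± 0.39 (SE) with all arrays and 0.24 ± 0.40 without treated arrays 3 and 5. CDC6 was higher on the treated array in 4 of 5 same-numbered pairs, and the SE with the block was 0.27.

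TFDP1 stood at 5.57, 6.08, 5.92, 5.78 and 6.56 on untreated SK-MEL-28 arrays 1 to 5, and on treated arrays 1 to 5 at 5.82, 6.06, 5.95, 6.88 and 6.26. Treated array 4 alone exceeded the untreated range. The difference was 0.21 ± 0.25 (SE), and 0.27 ± 0.30 without treated arrays 3 and 5. Leaving out treated array 4 alone brought it to 0.04. TFDP1 was higher on the treated array in 3 of 5 same-numbered pairs (SE 0.22 with the block).

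CCND3 stood at 7.05, 7.27, 6.13, 7.57 and 7.16 on untreated SK-MEL-28 arrays 1 to 5, and on treated arrays 1 to 5 at 7.48, 6.89, 7.14, 7.32 and 7.05. All 5 treated values lay within the untreated range. The difference was 0.14 ± 0.26 (SE), and 0.20 ± 0.32 without treated arrays 3 and 5. It was -0.08 without untreated array 3, the low one. CCND3 was higher on the treated array in 2 of 5 same-numbered pairs (SE 0.23 with the block).

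**Figure D2:**
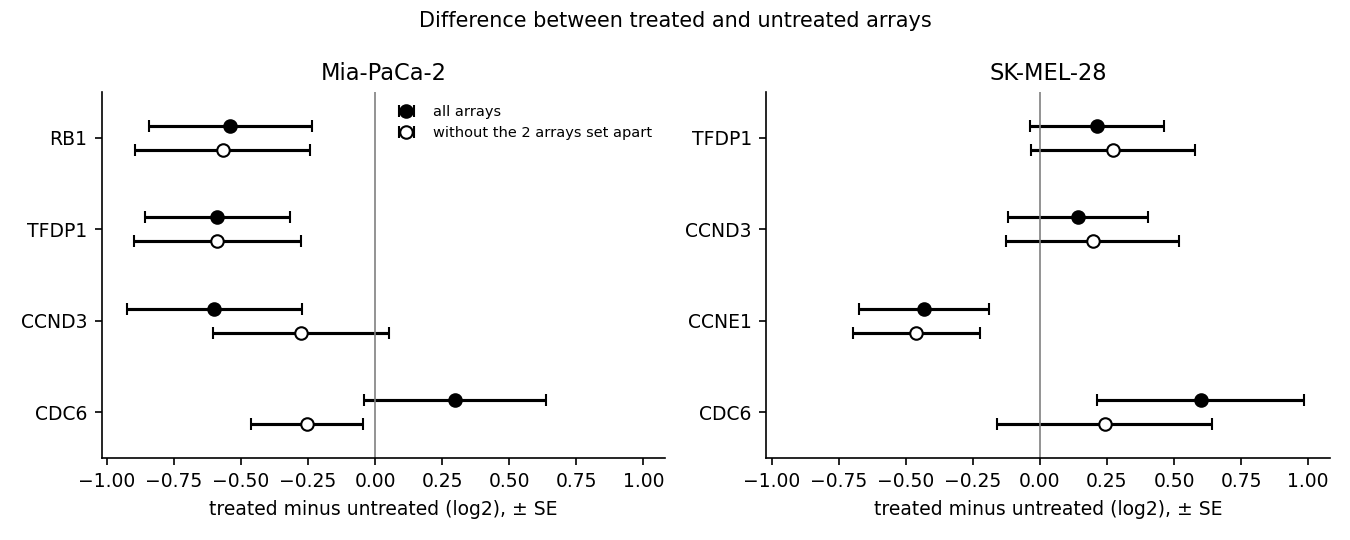
Treated minus untreated difference of each member on the log2 scale, with bars for ± SE from limma, in Mia-PaCa-2 (left) and SK-MEL-28 (right), over all arrays (filled) and without the pair of arrays set apart (open). Leaving out the pair moves CDC6 in Mia-PaCa-2 from 0.30 to -0.25 and CCND3 from -0.60 to -0.28, and leaves TFDP1 at -0.59.

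For the genes measured in both lines, the differences side by side, with Mia-PaCa-2 named before SK-MEL-28, were -0.59 and 0.21 for TFDP1, -0.60 and 0.14 for CCND3, and 0.30 and 0.60 for CDC6. Whether the lines differ was not tested, since both contrasts were known when the genes were listed.

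Among TFDP1, CCND3 and CDC6, the arrays set apart lay farthest from the mean of their line in CDC6. Over treated and untreated arrays together, CDC6 had 8.30 ± 0.33 (SD, n = 10) on the rest of the Mia-PaCa-2 arrays. Its level was 5.54 ± 0.59 (SD, n = 8) on the rest of the SK-MEL-28 arrays, with no overlap. Mia-PaCa-2 untreated arrays 4 and 5 (6.87 and 6.73) lay between these ranges, as did SK-MEL-28 treated array 5 (7.0), whereas its treated array 3 (6.17) lay inside the SK-MEL-28 range. CCND3 had the opposite order of the lines, with 5.91 ± 0.57 (SD, n = 10) and 7.11 ± 0.46 (SD, n = 8), and on all 4 arrays set apart it lay at 6.94 to 7.16, inside the range of SK-MEL-28. TFDP1 had 5.84 ± 0.60 (SD, n = 10) and 6.08 ± 0.43 (SD, n = 8), and the 4 arrays lay within the ranges of both lines. The lines were normalized separately, and what the probe names stand for on the 8 SK-MEL-28 arrays not set apart was not settled. These levels are therefore set side by side without a test, and no difference between the lines is read from them.

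**Figure D3:**
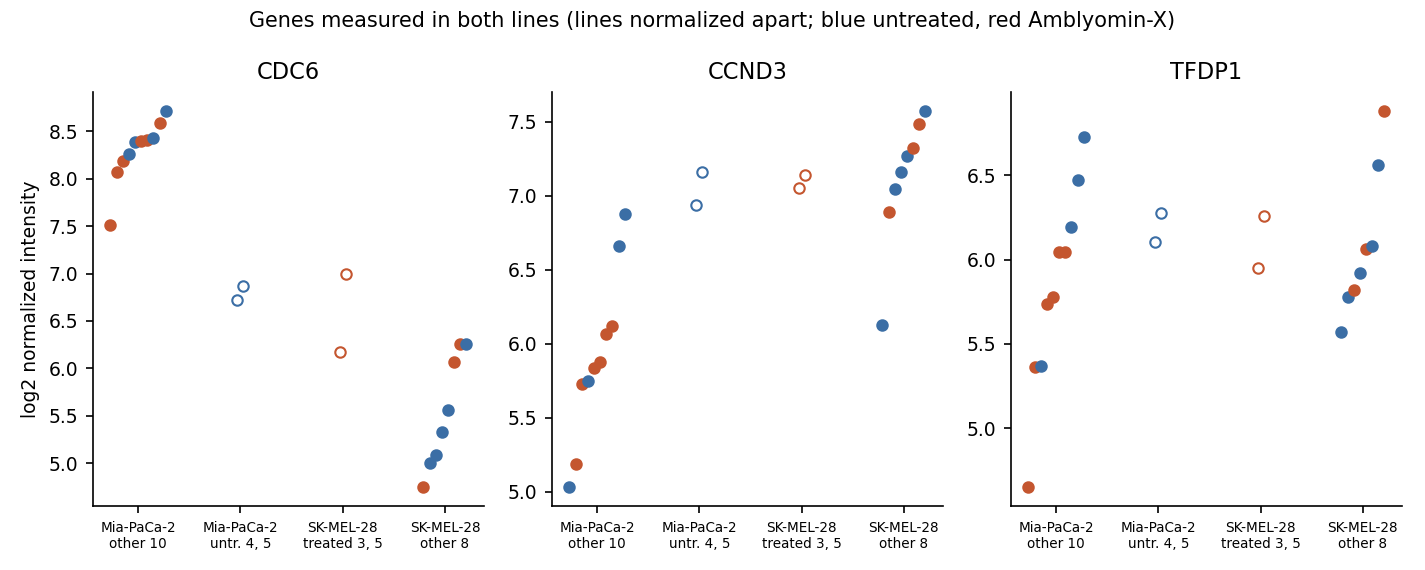
Log2 normalized intensity of CDC6, CCND3 and TFDP1 on the 10 other Mia-PaCa-2 arrays, Mia-PaCa-2 untreated arrays 4 and 5, SK-MEL-28 treated arrays 3 and 5, and the 8 other SK-MEL-28 arrays, with blue for untreated and red for treated cells. CDC6 on the Mia-PaCa-2 pair lies between the other arrays of the lines, while CCND3 on all 4 arrays lies at 6.94 to 7.16.

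Deviations of the members from their group means do not use the difference between treated and untreated cells, so they were tested for joint variation. Over the 10 Mia-PaCa-2 arrays not set apart, TFDP1 and CCND3 varied together with Pearson's r of 0.65 (permutation p = 0.0475, two-sided, adjusted p = 0.285 over 6 pairs) and Spearman's rho of 0.83 (permutation p = 0.00934, adjusted p = 0.0560). The relation did not pass after adjustment. In both lines the permutation took all arrays as independent and did not keep same-numbered arrays together. Where same-numbered arrays deviate alike, its p-values may be too small. With all 12 arrays r was 0.53 (permutation p = 0.0642, adjusted p = 0.332) and rho 0.45 (permutation p = 0.140, adjusted p = 0.626). Of the 10 arrays, those numbered 2 and 3 lay above and those numbered 6 below the group mean in both genes and both groups, and untreated array 1 departed from the relation. Without the 2 arrays farthest from the median of TFDP1, r was 0.62 (exact permutation p = 0.0389, adjusted p = 0.233, n = 8). The other 5 pairs in Mia-PaCa-2 had r from -0.16 to 0.19 (permutation, adjusted p from 0.743 to 0.960). Of these, CCND3 with CDC6 had -0.16, and -0.57 with all 12 arrays (permutation, adjusted p = 0.332). In SK-MEL-28 the pair TFDP1 and CCND3 had r of 0.04 over 8 arrays (exact permutation, adjusted p = 0.919). The largest value there was -0.79 for CCNE1 with CDC6 (rho -0.79, exact permutation p = 0.0528 and 0.0694, adjusted p = 0.283 and 0.417), and r was -0.71 without the 2 arrays farthest from the median of CCNE1. With all 10 arrays it was -0.62 (permutation, adjusted p = 0.266). None of the 6 pairs in either line passed.

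**Figure D4:**
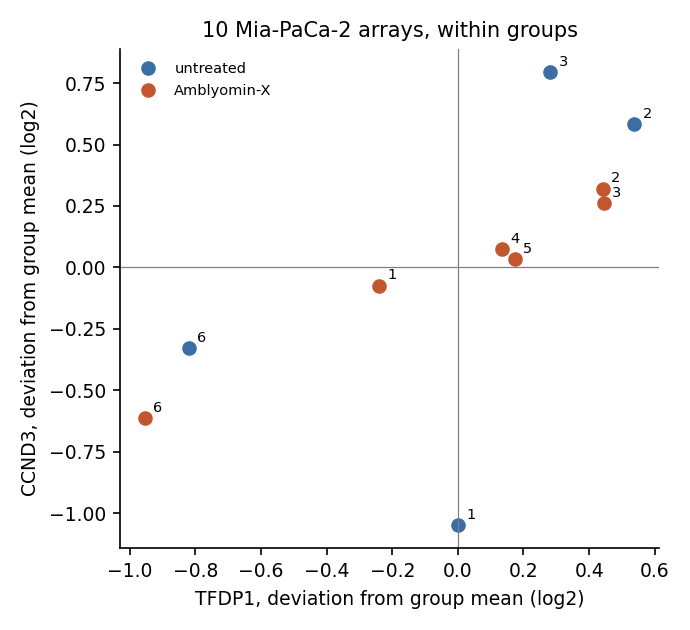
Deviation of CCND3 against that of TFDP1 from the mean of their group (log2) on the 10 Mia-PaCa-2 arrays not set apart, with replicate numbers at the points. Most arrays lie along a rising line (r = 0.65) and untreated array 1 lies far below it.

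The genes whose levels followed each member most closely were found over the arrays not set apart. They were sought among 6295 genes over 10 Mia-PaCa-2 arrays and 3354 genes over 8 SK-MEL-28 arrays. Unlike the deviations above, these levels had no group mean removed. Their r can therefore include the difference between treated and untreated cells, with which in view the members were listed. The r values given are the highest of all those correlations, over few arrays that each carry every gene, so they have no p. In Mia-PaCa-2, RB1 was followed by the phosphofructokinase gene PFKL (r = 0.91), RAB10 (0.88) and MRS2 (0.88), with Spearman's rho of 0.98, 0.88 and 0.64. TFDP1 was followed by BORA (0.95), an activator of Aurora A kinase in mitosis, AHNAK (0.94) and RSAD2 (0.94). CCND3 was followed by MTPN (0.98), SNX3 (0.97) and STMN1 (0.95), which destabilizes microtubules. CDC6 was followed by SEPTIN7P14 (0.93), STXBP3 (0.92) and RAB18 (0.92), with a lower rho of 0.77, 0.76 and 0.72. Treated array 1 was the lowest of these 10 arrays for CDC6 (7.52) and lay far below the rest of its group for SEPTIN7P14 (3.86). With all arrays of the line r was lower for most of the genes named in Mia-PaCa-2. It was 0.65 for PFKL, 0.87 for RAB10 and 0.61 for MRS2, and 0.43 for BORA, 0.63 for AHNAK and 0.69 for RSAD2. It was 0.46 for MTPN, 0.79 for SNX3 and 0.31 for STMN1, and -0.42 for SEPTIN7P14, 0.86 for STXBP3 and 0.92 for RAB18. In SK-MEL-28, CCNE1 was followed by TCEAL5 (0.95), SPEM2 (0.94) and NCKAP5L (0.94), and CDC6 by MAP4K5 (0.96), COL28A1 (0.95) and TSGA13 (0.95). TFDP1 was followed there by TFAP2A (0.93), RPRD2 (0.91) and SOBP (0.90), and CCND3 by MAP2K1 (0.97), a kinase of the MAP kinase cascade, OGDH (0.91) and INTS6-AS1 (0.89). With all 10 arrays r was 0.56 for MAP2K1, 0.52 for COL28A1, 0.72 for MAP4K5 and 0.71 for TSGA13, and 0.78 to 0.92 for the other 8. No gene was named for a member in both lines.

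Of 62 further genes of the pathway, the pancreatic line had values for 32 and the melanoma line for 7, and none passed the threshold in either direction by limma. In Mia-PaCa-2, 23 differences were positive and 9 negative, while 51.2% of all probes lay above 0. Their median was 0.30 (log2), against 0.01 over all probes. Without untreated arrays 4 and 5, 16 were positive and 16 negative, with a median of 0.02, while 50.6% of all probes lay above 0. These genes were listed with earlier results of these data known, so nothing is read from the counts.

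Genes of origin licensing and firing, the step that CDC6 serves, had 9 of 12 positive differences in Mia-PaCa-2 (0 passed, median 0.34), and 6 of 12 without untreated arrays 4 and 5 (median -0.01). The helicase subunits MCM2 and MCM7 had 0.97 ± 0.35 (SE) and 0.70 ± 0.23, and 0.51 ± 0.30 and 0.42 ± 0.18 without that pair. MCM2 stood at 9.54 and 8.79 on untreated arrays 4 and 5 and at 9.71 to 11.63 on the other 10 arrays, so like CDC6 it was lowest on that pair. E2F targets of S phase had 6 of 8 positive (0 passed, median 0.46, and 0.21 without the pair). Thymidine kinase TK1 had 0.84 ± 0.32, with 9.18 and 9.11 on the pair against 10.56 to 11.25 elsewhere, and 0.30 ± 0.16 without the pair. POLA1, of DNA polymerase alpha, had 0.68 ± 0.26, and 0.37 ± 0.21 without it.

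Among the E2F factors 2 of 4 were positive in Mia-PaCa-2 (0 passed, median 0.09, and -0.22 without untreated arrays 4 and 5). E2F2, an activating E2F, had 0.67 ± 0.38 (SE) and 0.08 ± 0.19 without the pair, and E2F5, which acts with pocket proteins as a repressor, had -0.44 ± 0.28 and -0.61 ± 0.30. Among cyclins, their kinases and inhibitors 3 of 4 were positive (0 passed, median 0.13, and 0.02 without the pair). The CDK inhibitor p21, encoded by CDKN1A, had 0.28 ± 0.39 with all arrays and 0.74 ± 0.35 without the pair, on which it stood at 9.16 and 8.20. Its relative CDKN1C had -0.35 ± 0.20 and -0.26 ± 0.21. Parts of the SCF ligase, which marks cyclin E and CDK inhibitors for breakdown, had 3 of 4 positive (0 passed, median 0.34, and 0.15 without the pair). The adaptor SKP1 had 0.56 ± 0.22 and 0.34 ± 0.20, and CKS1B had 0.53 ± 0.16 and 0.50 ± 0.14, with 0.31 for its second probe.

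**Figure D5:**
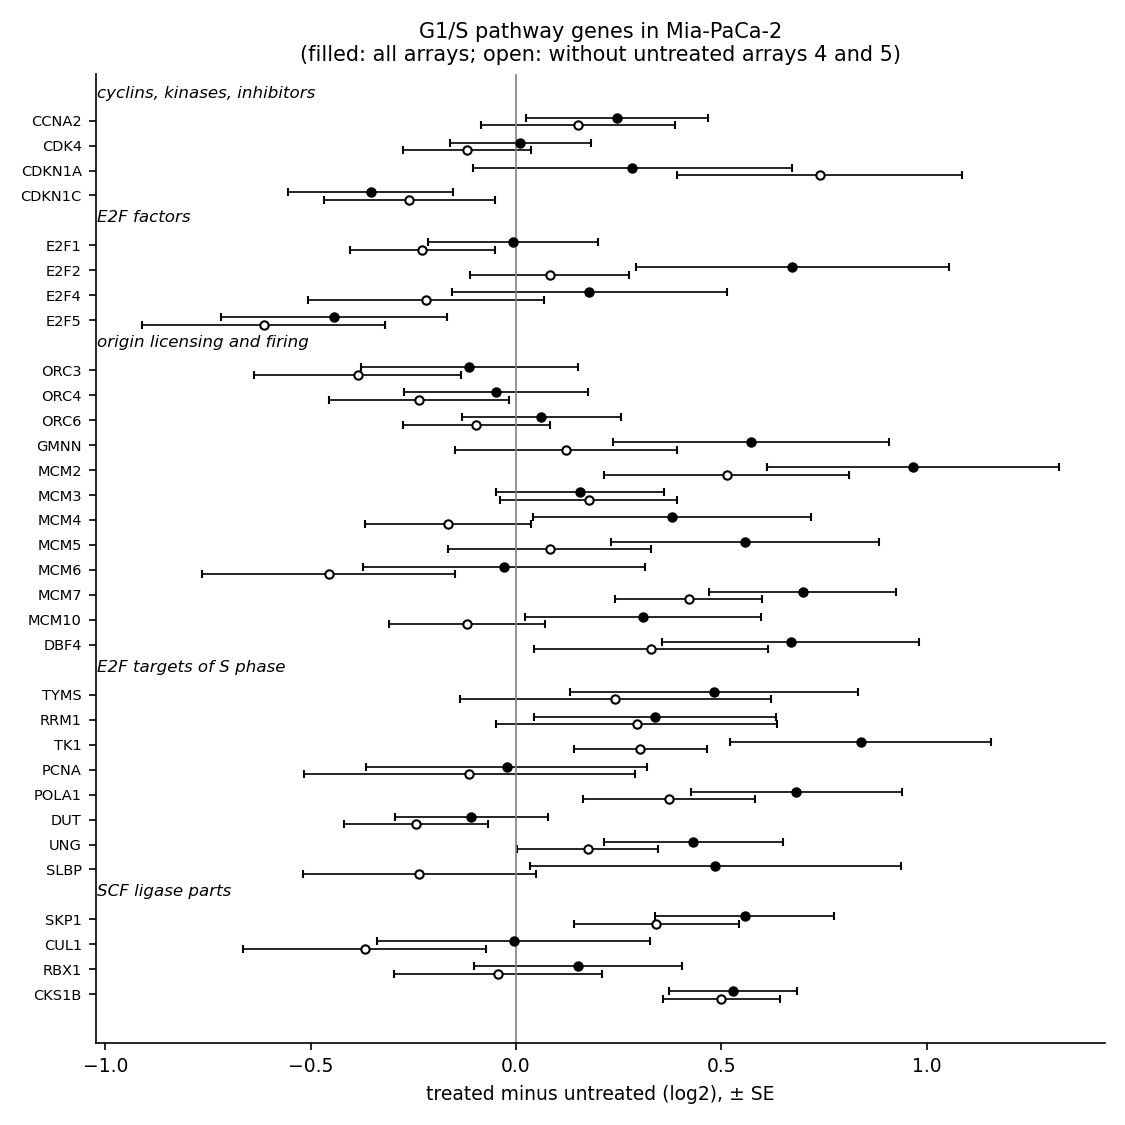
Treated minus untreated difference (log2, ± SE from limma) of the 32 further G1/S pathway genes measured in Mia-PaCa-2, grouped by role, over all arrays (filled) and without untreated arrays 4 and 5 (open). Most filled points lie right of 0, while 16 of 32 open points do.

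In SK-MEL-28, 6 of the 7 measured pathway genes had a positive difference with all arrays (0 passed, median 0.70, against -0.05 over all probes) and 2 of 7 without treated arrays 3 and 5 (median -0.10). Over all probes, 42.6% lay above 0 with all arrays and 52.5% without that pair. MCM2 had 0.87 ± 0.81 (SE) and -0.61 ± 0.35 without the pair, standing at 8.72 and 8.99 on it against 4.78 to 6.57 on the other 8 arrays. MCM7 had 0.70 ± 0.75 and -0.47 ± 0.56 without it. TK1, at 9.19 and 9.11 on the pair and 5.62 to 6.27 elsewhere, had 1.24 ± 0.71 and -0.10 ± 0.22. CDC6 was less far from its line on that pair than these genes. CDK4 had 0.79 ± 0.65 and -0.34 ± 0.35 without the pair (1.50 for its second probe with all arrays), CCNA2 had -0.30 ± 0.35 and 0.06 ± 0.36, E2F1 had 0.06 ± 0.26 and -0.02 ± 0.31, and E2F5 had 0.29 ± 0.25 and 0.22 ± 0.24. The part that the arrays set apart play in the differences in either line was not tested beyond leaving them out.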

How the data were processed

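Gene expression was measured on 22 CodeLink human arrays read in 1 colour. Each array has a deposited file of linear intensity values, 1 per probe, per the file headers. The table of the whole series, also deposited, holds intensities normalized by the authors within each line. Neither the method nor any background correction is named (not given in the sources used here). Values were put on the log2 scale. Probes with 3 or more values in both groups were fitted per line with limma 3.58.1 in R 4.3.3 (threshold 0.05 after Benjamini-Hochberg adjustment), checked on simulated data. Tables and figures were made with Python 3.11.15. Standard errors are limma's. The number of arrays limits the precision, and no detection flags were used.

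The members and gene lists were chosen with earlier results of these data known. In the naming rule, up to 2 genes of each list and line with the largest difference, and the 3 genes most correlated with each member, are named. A gene with several probes is read from the brightest. Correlations within groups were permuted within groups (100000 resamples, exact under 10 arrays).

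Same-numbered treated and untreated arrays deviated together in SK-MEL-28, where all 5 pairs correlated by 0.247 to 0.602 over 7810 probes. Pairs by the titles' numbers, and a block for them, are therefore given beside the main SK-MEL-28 fit, which took the arrays as unpaired. Of these untreated arrays, 3 of 5 were closest to the treated array of their own number. Untreated array 3 was closer to treated array 1 (0.507 against 0.401), and untreated array 5 to treated array 4 (0.359 against 0.247). The pairing is thus not settled. The descriptions number all 6 untreated Mia-PaCa-2 arrays alike, as replicate 1, so the numbers of that group rest on the titles alone.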

Additional observations from a re-analysis of the deposited data

Results flagged for a closer look

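Among 98 groups of 5 or 6 arrays of the members and the other named genes, 2 held an array far from the rest, where chance flags about 5%. MRS2 stood at 4.42 on untreated Mia-PaCa-2 array 5 and at 5.65 to 6.07 on the other untreated arrays. SEPTIN7P14 stood at 3.86 on treated Mia-PaCa-2 array 1, whereas the rest of that group ran from 5.01 to 5.46. None of the 16 groups of the members was flagged. The check takes the gap between 1 array and its nearest neighbour, so it cannot flag 2 arrays that lie apart together. Such a pair was CDC6 on untreated Mia-PaCa-2 arrays 4 and 5, at 6.87 and 6.73 against 8.26 to 8.72 on the rest of that group.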

How the results depend on the processing

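Of 140 values of the members' differences under the alternatives, 5 had the opposite sign to the reported value. These were CDC6 in Mia-PaCa-2 without untreated arrays 4 and 5 (-0.25), with the replicate block as well (-0.27) and on the per-sample intensities (-0.26, an alternative chosen after seeing the data), and CCND3 in SK-MEL-28 without untreated array 3 (-0.08) and with the block and without treated arrays 3 and 5 (-0.06). With array weights, CDC6 in Mia-PaCa-2 was 0.00237 and CCND3 in SK-MEL-28 was 0.00202, against 0.30 and 0.14 as reported. Leaving out 1 array gave -0.68 to -0.31 for RB1, -0.75 to -0.40 for TFDP1, -0.87 to -0.45 for CCND3 and 0.06 to 0.46 for CDC6 in Mia-PaCa-2, and -0.58 to -0.31 for CCNE1 and 0.36 to 0.93 for CDC6 in SK-MEL-28. Leaving out the dimmest 25% of probes removes RB1 and TFDP1 in Mia-PaCa-2 and CCNE1 and CDC6 in SK-MEL-28, so they have no value under that setting.

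Over all probes the count passing stayed at 0, except with array weights in Mia-PaCa-2, where 1 passed (N4BP2L2, named after its value was seen). The count at an unadjusted p under 0.05 in Mia-PaCa-2 was 636 without untreated arrays 4 and 5 (736 with the block, 709 on per-sample intensities), and, with 1 untreated array left out, 689 (array 4), 643 (array 5) and 1887 (array 1). In SK-MEL-28 it was 206 without treated arrays 3 and 5 (207 on per-sample intensities), 296 and 228 without either alone, 720 without treated array 1, 285 without the lowest 25% of probes and 857 with the block. In Mia-PaCa-2 the titles' numbers, which the descriptions of the untreated arrays do not repeat, were not taken to pair the arrays. Same-number correlations there ran from -0.187 to 0.437, and 2 of 6 arrays were closest to their own number. Members were lower on the treated array of a number in 4 of 5 pairs for RB1 (SE 0.28 with the block) and 6 of 6 for TFDP1 (0.18). For CCND3 this held in 5 of 6 (0.26) and for CDC6 in 2 of 6 (0.33). The block left every member's direction in Mia-PaCa-2. The block changed no call of a probe or member in either line.

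Correlations turned sign for RB1 with CDC6 in Mia-PaCa-2 (-0.0196 on per-sample intensities, -0.43 without the 2 farthest arrays) and, without the 2 farthest arrays, for CCND3 with CDC6 (0.13). In SK-MEL-28 they did so without the 2 farthest arrays for TFDP1 with CCND3 (-0.27, and -0.0691 on per-sample intensities), TFDP1 with CCNE1 (0.49), CCND3 with CCNE1 (0.49) and CCND3 with CDC6 (-0.25, and -0.0423 over all arrays). None passed under any setting, and the cause of these changes was not tested.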
